A study of Mus musculus with 6 samples.

Results

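The aquaporins are the channel proteins through which water crosses cell membranes, and 10 mouse aquaporin genes were followed here in ovarian granulosa cells, the somatic cells that surround the oocyte in the follicle. The 10 genes, Aqp1 to Aqp9 and Aqp11, had 22 probe sets that carry their symbol alone in the platform annotation, of 45037 probe sets on the array. The family was chosen from the intensities of Aqp2 and Aqp5 at 2 months of age, which had been seen to be high in these data. The aquaporin values at 2 months are therefore given as a description with no test, and the aquaporins are tested only between the genotypes at day 25.

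Each aquaporin forms a tetramer with a water pore in every subunit. Aqp1, Aqp2, Aqp4 and Aqp5 are classical water channels, Aqp3, Aqp7 and Aqp9 also pass glycerol, Aqp8 passes water and other small molecules, Aqp6 works as an anion channel of intracellular vesicles, and Aqp11 sits in membranes inside the cell. In the growing follicle, fluid collects between the granulosa cells and opens the antrum, and water has to cross or pass between these cells to reach it. Aqp7, Aqp8 and Aqp9 have been described in rat granulosa cells. Aqp2 is best known from the kidney collecting duct, where vasopressin and cAMP move it to the cell surface, and Aqp5 from glands and lung.

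RNA was measured on 6 Affymetrix arrays, 2 for each of 3 kinds of mouse. These were wild type at day 25, Foxo1/3 dKO at day 25 and Foxo1/3 dKO at 2 months, all on a mixed FVB and C57BL/6 background. The dKO genotype is given as Foxo1 f/-;Foxo3 f/-; Amhr2-cre, in which Cre is driven from Amhr2, a gene active in granulosa cells and in the mesenchyme around the Müllerian ducts. Foxo1 and Foxo3 are forkhead transcription factors that insulin and PI3K signalling hold inactive. Wild-type cells at 2 months were not analysed here, so age and genotype cannot be told apart between dKO at 2 months and wild type. The labels do not say whether the replicates came from separate animals or from pools, so the spread behind each p-value is that between arrays and may be technical.

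All 14 granulosa markers measured, among them Foxl2, Fshr and Inha, were above the reference level described below on every array. Their summed intensity was 127830 to 136650 in wild type, 133321 to 147861 in the day 25 dKO and 130702 to 145568 in dKO at 2 months. By gene, 10 means were higher and 4 lower in the dKO at day 25, with a median log2 difference of 0.07. Between the dKO ages 5 were higher and 9 lower, with a median of -0.15. All genes had medians of 0.03 and 0.02. Foxo1 intensity was 10319 and 7666 in wild type, 904 and 2291 in the day 25 dKO, and 126 and 343 in dKO at 2 months. Foxo3 was not lower but higher in both dKO groups, at 1632 and 1342, 2539 and 3279, and 2484 and 1872 in the same order. Against wild type its adjusted p in limma was 0.485 at day 25 and 0.389 at 2 months. Where the probe sets lie relative to the deleted parts is not given in the sources used here, and one outside them would not show the loss. Replicate 1 of the dKO at 2 months stood apart, with r of 0.964 to 0.978 against the other arrays across probe sets, where the other pairs had r of 0.982 to 0.992. Replicate 2 of that group had r of 0.991 and 0.992 with the day 25 dKO arrays, and 0.978 with its own replicate 1.

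Aqp2 and Aqp5 lie next to each other on chromosome 15 and are the members that moved together, so the 250 bases before the start of each are shown first, from RefSeq on GRCm38.p6. The Aqp2 stretch is chr15:99578806-99579055 and the Aqp5 stretch is chr15:99590778-99591027, both on the plus strand. Capitals mark matches to 4 motifs searched on both strands: GTAAACA, the FOXO binding element; TGACGT, the cAMP response half-site; AAGGTCA, the element of the nuclear receptor SF-1; and the E-box CACGTG.
Aqp2: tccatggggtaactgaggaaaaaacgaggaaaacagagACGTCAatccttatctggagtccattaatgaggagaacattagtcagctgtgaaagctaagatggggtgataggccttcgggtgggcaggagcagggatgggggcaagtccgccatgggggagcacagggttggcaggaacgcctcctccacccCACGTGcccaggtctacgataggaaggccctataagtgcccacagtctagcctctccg
Aqp5: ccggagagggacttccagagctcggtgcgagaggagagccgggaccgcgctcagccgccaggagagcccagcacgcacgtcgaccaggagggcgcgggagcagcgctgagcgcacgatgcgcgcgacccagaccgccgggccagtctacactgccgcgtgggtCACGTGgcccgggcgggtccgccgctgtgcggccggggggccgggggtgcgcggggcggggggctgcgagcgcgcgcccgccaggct

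The 2 stretches differ in composition. G and C make up 55.6% of the Aqp2 stretch and 78.4% of the Aqp5 stretch, and 98.1% of the 32851 RefSeq stretches of this length have less G and C than Aqp5. The Aqp2 stretch holds a cAMP response half-site on the reverse strand, 212 to 207 bases before the start, a motif found in 6.47% of all stretches. Both hold an E-box, at 58 to 53 bases before the start of Aqp2 and 87 to 82 before that of Aqp5. The E-box was found in 6.02% of all stretches and was added to the search after these sequences had been read. Neither stretch holds the FOXO element, present in 3.17% of stretches, or the SF-1 element, present in 4.08%. Of the 10 genes, 9 had an entry in the sequence table, and the E-box was also found in those of Aqp6 and Aqp8. A match of letters is a description of these windows only.

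Aqp2, the vasopressin-regulated water channel of the kidney, had an intensity of 126 and 188 in wild type, 128 and 163 in the day 25 dKO, and 871 and 864 in dKO at 2 months. Both 2-month arrays stood above the 4 arrays of day 25, and the 2 genotypes at day 25 overlapped. The mean was 157 ± 43.8 in wild type, 146 ± 24.7 in the day 25 dKO and 868 ± 4.95 in dKO at 2 months (SD, n = 2). The 2-month mean was 5.97-fold that of dKO at day 25 and 5.61-fold that of wild type, on the log2(intensity + 1) scale used for every fold here. The 2-month arrays enter both of these comparisons.

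Aqp5, the water channel of glands and airways, had an intensity of 180 and 267 in wild type, 209 and 266 in the day 25 dKO, and 1709 and 1395 in dKO at 2 months. The order was the same as for Aqp2, with the 2-month arrays apart and the 2 genotypes at day 25 mixed. The means were 224 ± 61.5, 238 ± 40.3 and 1552 ± 222 (SD, n = 2). The 2-month mean was 6.52-fold that of dKO at day 25 and 7.02-fold that of wild type. Among the log2 differences of all 45037 probe sets between the dKO ages, Aqp5 ranked 10 and Aqp2 ranked 16 from the highest. Both genes were picked for their 2-month values, so nothing is read from these ranks.

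**Figure D1:**
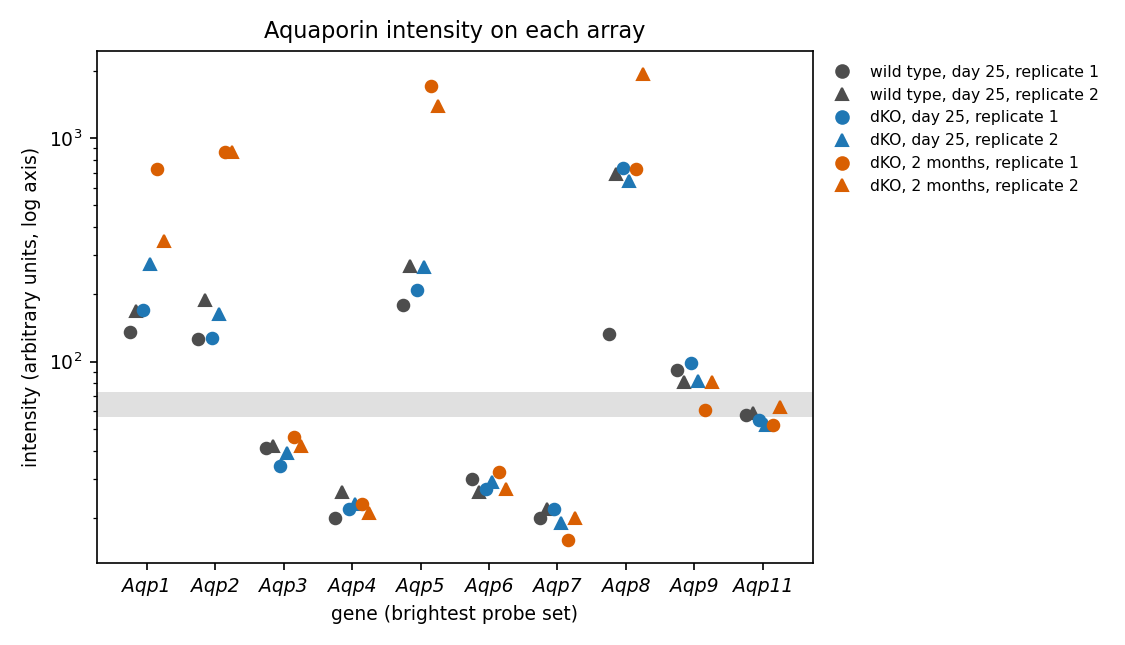
Intensity (log axis) of the brightest probe set of each of the 10 aquaporin genes on each of the 6 arrays, with colours for groups and symbols for replicates; the grey band spans the reference level of the arrays, 56.8 to 73.5. Aqp2 and Aqp5 stand at 864 to 1709 on the dKO 2-month arrays and at 126 to 267 on all arrays of day 25.

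At day 25 neither gene differed between the genotypes beyond the spread of the arrays. The log2 difference of dKO from wild type was -0.09 ± 0.23 (SE) for Aqp2, with adjusted p = 0.936 in limma. The 95% interval of the ratio ran from 0.618 to 1.43. For Aqp5 it was 0.10 ± 0.25, with adjusted p = 0.932 in limma, and the interval ran from 0.687 to 1.68. These intervals do not show that the genotypes were alike. The signs of both day 25 differences turned when single arrays were left out, from -0.38 to 0.20 for Aqp2 and from -0.18 to 0.39 for Aqp5. Between the dKO ages both genes had been picked for their values, so what follows is a description only. Without any 1 array the log2 difference was 2.40 to 2.75 for Aqp2 and 2.53 to 2.88 for Aqp5. Without dKO 2-month replicate 1 it was 2.57 and 2.56.

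Aqp1, the water channel of vascular endothelium and red cells, had an intensity of 136 and 169 in wild type, 171 and 275 in the day 25 dKO, and 731 and 345 in dKO at 2 months. Each group lay above the one before it without overlap, though by only 2 units between the higher wild-type array and the lower dKO array at day 25. At day 25 the log2 difference was 0.51 ± 0.43 (SE), with adjusted p = 0.781 in limma and a 95% interval of the ratio from 0.656 to 3.11. It was 0.17 without dKO day 25 replicate 2, and 0.85 without replicate 1 of that group. The 2-month mean was 2.31-fold that of dKO at day 25, a log2 difference of 1.21, which was 0.67 without dKO 2-month replicate 1 and 1.75 without replicate 2.

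Endothelial markers ran in the same direction on the same arrays. The summed intensity of 12 genes was 1174 to 1411 in wild type, 1496 to 2111 in the day 25 dKO and 2293 to 4193 in dKO at 2 months, and 12 of 12 had higher means in both steps. Cdh5, the vascular cadherin, was picked out after its values were seen. It was 82 and 81 in wild type, 142 and 167 in the day 25 dKO, and 318 and 177 at 2 months, so that the array with the most Aqp1 also had the most Cdh5. Leukocyte and surface epithelium markers, described below, also had their highest sums on that array, dKO 2-month replicate 1. The summed intensity of 5 red cell markers also rose from group to group and was highest on dKO 2-month replicate 1. It was 223 to 230 in wild type, 412 to 461 in the day 25 dKO and 490 to 772 at 2 months. Most of that sum was Alas2, the heme synthesis enzyme of red cell precursors, at 129 and 127, 364 and 289, and 598 and 398. By gene the list was split at day 25, with 2 higher means, 2 lower and a median log2 difference of 0. Between the dKO ages 5 of 5 were higher, and at 2 months against wild type 3 were higher and 2 lower. Slc4a1, the red cell anion exchanger, passed the reference on 2 arrays, and Hba-a1, Epb42 and Rhag on none. In such bulk RNA, fewer cells of a type and less RNA per cell cannot be told apart, and the part of endothelial or red cell RNA in the Aqp1 values was not tested.

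Aqp8, a channel for water and other small molecules, had an intensity of 133 and 689 in wild type, 738 and 646 in the day 25 dKO, and 730 and 1937 in dKO at 2 months. Wild-type replicate 1 was far below and dKO 2-month replicate 2 far above the other 4 arrays, which lay between 646 and 738. The means were 411 ± 393, 692 ± 65.1 and 1334 ± 853 (SD, n = 2). The day 25 log2 difference of 1.19 ± 0.89 (SE) had adjusted p = 0.753 in limma and a 95% interval of the ratio from 0.457 to 11.3. It was 0.00 without wild-type replicate 1 and 2.37 without wild-type replicate 2. Between the dKO ages the log2 difference was 0.78, and 0.08 without dKO 2-month replicate 2 against 1.49 without replicate 1. The 2-month mean was 3.91-fold that of wild type, a log2 difference of 1.97, which was 0.79 without wild-type replicate 1. A single array moved each of these values strongly.

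The table has no call of detection, so the 95th percentile of 80 probe sets of olfactory and vomeronasal receptor genes, which are not expected in granulosa cells, served as a reference for unspecific signal. It was 56.8 to 73.5 on the 6 arrays. Aqp1, Aqp2, Aqp5 and Aqp8 were above it on all 6 arrays. Aqp9, a glycerol and water channel, was above it on 5 arrays, with an intensity of 92 and 81 in wild type, 99 and 82 in the day 25 dKO, and 61 and 81 in dKO at 2 months. The low array was dKO 2-month replicate 1, and the second Aqp9 probe set stayed between 31 and 39. Aqp11, the intracellular member, passed the reference on 1 array with its brightest probe set, at 52 to 63. That array was wild-type replicate 1, at 58 against a reference of 56.8. The other Aqp11 probe sets stayed between 20 and 27 and passed on no array.

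Aqp3, Aqp4, Aqp6 and Aqp7 stayed below the reference on every array with all of their probe sets. Aqp3, the glycerol channel of skin and kidney, was 34 to 46 on its brightest probe set. Aqp4, the water channel of astrocytes, was 20 to 26 on its brightest probe set. Aqp6, the anion channel, was 26 to 32. Aqp7, the glycerol channel of fat cells, was 16 to 22. A dim probe set can also be a poor probe, so these values do not show that the genes were silent. Over the 18 probe sets of the 6 genes other than Aqp1, Aqp2, Aqp5 and Aqp8, all intensities were between 8 and 99, and the log2 differences ran from -0.25 to 0.14 for dKO against wild type at day 25 and from -0.35 to 0.26 between the dKO ages.

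Counted over the family at day 25, limma called 0 of 22 probe sets at an adjusted p under 0.05, and 0 were under an unadjusted p of 0.05. Over all 45037 probe sets these shares were 0.0% and 8.14%, and the smallest adjusted p was 0.367. The groups did not overlap for 4 of the 22, of which 2 were higher and 2 lower in the dKO. Of all probe sets 41.3% did not overlap, 19.7% being higher and 21.5% lower. The higher ones were that of Aqp1 and a dim one of Aqp6, and the lower ones were the brightest of Aqp3 and Aqp11. The median log2 difference was -0.01 over the members and 0.00 over all probe sets.

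Between the dKO ages 5 of 22 probe sets were higher and 1 was lower without overlap, where all probe sets gave 18.9% and 13.3%. Because Aqp2 and Aqp5 were picked for their values here, nothing is read from this count. Aqp1, Aqp2 and Aqp5 were higher by over 2-fold without overlap, as were 0.728% of all probe sets. The other 2 higher probe sets belonged to Aqp3, below the reference level, and the lower one was that of Aqp9. Against wild type at day 25, the dKO at 2 months had 4 probe sets higher without overlap and 0 lower, against 22.5% and 18.3% of all probe sets. These 4 were the probe sets of Aqp1, Aqp2, Aqp5 and Aqp8, all by over 2-fold, as were 2.19% of all probe sets.

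**Figure D2:**
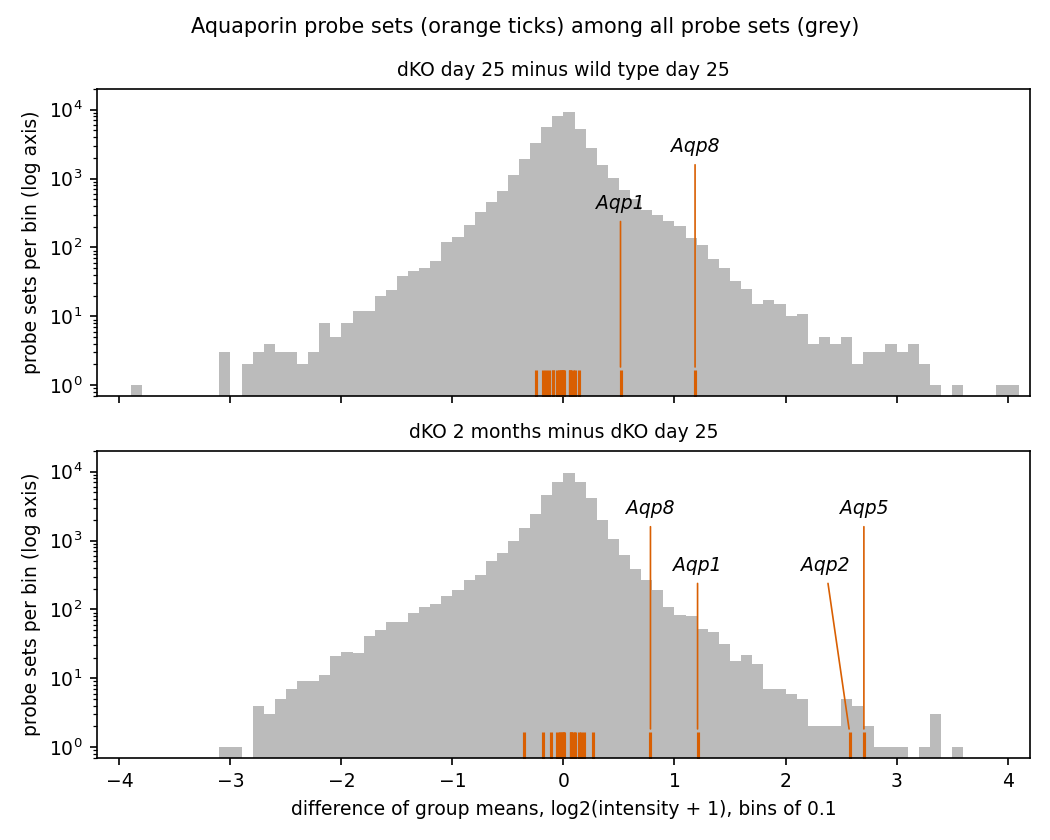
Histograms (log axis) of the log2 difference of group means for all 45037 probe sets in grey, with the 22 aquaporin probe sets as orange ticks, for dKO against wild type at day 25 (top) and for the dKO at 2 months against day 25 (bottom). At day 25 the ticks lie between -0.25 and 1.19, and between the dKO ages Aqp2 (2.58) and Aqp5 (2.71) stand in the upper tail.

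Aqp2, Aqp5 and Aqp6 follow each other on chromosome 15 with no other protein-coding gene between them. Amhr2, from which Cre is driven, is on the same chromosome, and both dKO groups carry that allele. The third gene of the cluster did not share the 2-month values of its neighbours, since Aqp6 had an intensity of 30 and 26 in wild type, 27 and 29 in the day 25 dKO, and 32 and 27 in dKO at 2 months. Its level was below the reference on all arrays, so a change at so dim a probe set could have been missed.

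The next 3 protein-coding genes on each side had smaller differences. Between the dKO ages the log2 difference was 0.18 for Nckap5l, 0.02 for Bcdin3d, a methyltransferase, and -0.10 for Faim2, an inhibitor of FAS-driven death, on the Aqp2 side. On the Aqp6 side it was -0.68 for Racgap1, a protein of cell division, -0.04 for Asic1, an acid-sensing ion channel, and 0.12 for Smarcd1, a chromatin remodelling subunit. The arrays of the dKO ages overlapped for all 6. Their adjusted p in limma was from 0.742 to 0.976, in a comparison where 0.0% of all probe sets passed and the smallest adjusted p was 0.712, so these p-values do not separate the neighbours from other genes. Racgap1 was 660 and 461 in the day 25 dKO against 204 and 583 at 2 months, so its difference lay on dKO 2-month replicate 1.

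**Figure D3:**
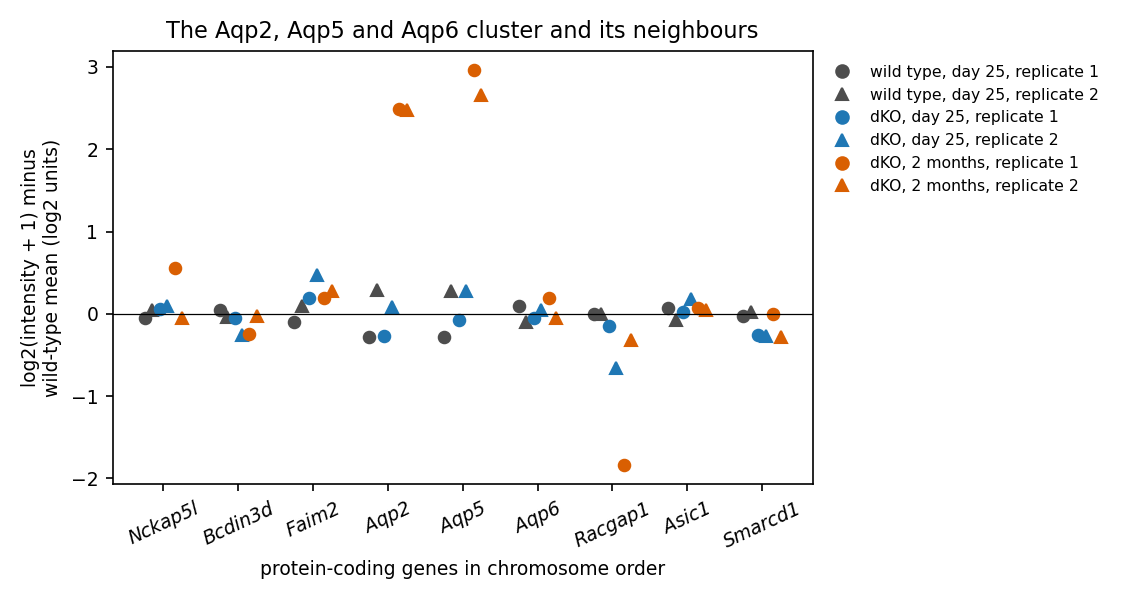
Level of each gene on each array as log2(intensity + 1) minus the wild-type mean, for Aqp2, Aqp5, Aqp6 and the 3 protein-coding genes on either side in chromosome order. On the dKO 2-month arrays Aqp2 and Aqp5 lie above 2 log2 units, Racgap1 falls on replicate 1, and the other genes stay within 1 unit of 0.

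Markers of other cell types also differed in mean between the dKO ages, though the summed leukocyte and surface epithelium intensities of the ages overlapped. Surface epithelium markers had higher means at 2 months for 11 of 12 genes, and their summed intensity was 3545 to 3860 in wild type, 4425 to 5325 in the day 25 dKO and 5324 to 7161 at 2 months. Theca markers were higher for 4 of 7 genes and lower for 3, with sums of 6115 to 6887, 4397 to 11854 and 23237 to 24715. Most of the 2-month theca sum came from Cyp17a1, the androgen enzyme of theca cells, picked out after the values were seen. Cyp17a1 was 1275 and 1509 in wild type, 389 and 5073 in the day 25 dKO, and 12804 and 15028 at 2 months. Leukocyte markers had higher means for 12 of 12 genes, with sums of 1875 to 3364, 5009 to 8996 and 5452 to 17444. Of these genes 2 were higher without overlap, beside 18.9% of all probe sets. The leukocyte sum was 17444 on dKO 2-month replicate 1 and 5452 on replicate 2. Oocyte markers were lower at 2 months for 14 of 14 genes without overlap, with a median log2 difference of -1.998, and higher in the dKO at day 25 for 14 of 14 without overlap, with a median of 1.12. Of all probe sets, 13.3% were lower without overlap between the dKO ages and 19.7% were higher without overlap at day 25. The median log2 difference over all genes was 0.02 between the dKO ages and 0.03 at day 25. The oocyte marker sums were 20183 to 33583 in wild type, 47536 to 70820 in the day 25 dKO and 6197 to 37359 at 2 months.

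Oviduct epithelium, which can be carried over in dissection, was represented by 12 markers, 6 of which were above the reference on no array, including Pax8, Foxj1 and Sox17. Their sums were 1581 to 2099, 2061 to 2761 and 1769 to 2499, with higher 2-month means for 7 of 12. Relative to the mean of the 6 arrays, the median level of the surface epithelium list was 1.04 on dKO 2-month replicate 1 and 0.14 on replicate 2, and that of the leukocyte list was 1.64 and -0.03. On the same arrays Aqp2 was 1.69 and 1.68, and Aqp5 was 1.99 and 1.69. The theca list was 0.50 and 0.66. The part of these cells in the Aqp2 and Aqp5 values was not tested.

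**Figure D4:**
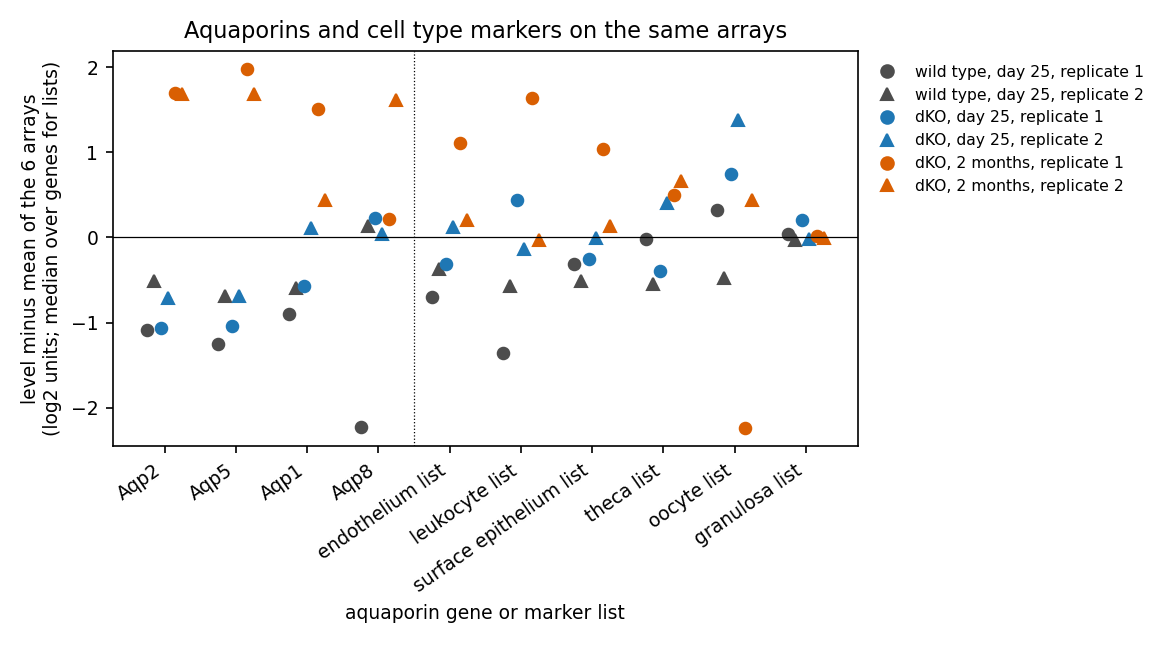
Level on each array relative to the mean of the 6 arrays, in log2 units, for 4 aquaporins (left of the dotted line) and as the median over the genes of 6 marker lists (right). The 2-month arrays lie together for Aqp2 (1.69 and 1.68) and differ for the leukocyte list (1.64 and -0.03) and the oocyte list (-2.25 and 0.44), while the granulosa list stays between -0.03 and 0.21.

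The genes most like Aqp2 and Aqp5 across the 6 arrays were ranked by Pearson correlation of log2(intensity + 1), among 3868 genes whose arrays spanned over 1 log2 unit. The arrays fall apart into day 25 and 2 months for both genes, so the measure reflects that step above all. Mfsd4a, a membrane transporter of the major facilitator family, came first for both, with r = 0.996 for Aqp2 and r = 0.997 for Aqp5. Its intensity was 129 and 164 in wild type, 130 and 163 in the day 25 dKO, and 394 and 359 in dKO at 2 months. At day 25 replicate 2 was the higher array of each pair for Mfsd4a, as for Aqp2 and Aqp5. The ranking used these same arrays, so this order is part of what was ranked and adds nothing to it.

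Junb, a subunit of the AP-1 transcription factor, Btg2, an antiproliferative gene, and Abhd2, a lipid hydrolase, were in the first 5 for both genes as well. Junb was 79 and 109 in wild type, 90 and 79 in the day 25 dKO, and 243 and 253 at 2 months. Btg2 was 651 and 927, 617 and 820, and 1826 and 1650 in the same order. In all, 4 of the 5 were shared, and Spns2, a sphingosine-1-phosphate exporter, completed the list of Aqp2 and Ly6k that of Aqp5.

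The genes through which the kidney controls Aqp2 were examined as a list of 25, all measured. At day 25 limma gave an unadjusted p under 0.05 to 0 higher and 2 lower genes, against 3.36% and 4.79% of all probe sets, and 0 passed after adjustment. Between the dKO ages it did so for 1 higher and 0 lower, against 3.36% and 2.22%, or 5.58% in all, and 0 passed. The median log2 difference was 0.02 at day 25 and 0.14 between the dKO ages, where all genes had 0.03 and 0.02. For the 2-month dKO against wild type it was 0.19, where all genes had 0.04. In that comparison 11 were higher and 1 lower without overlap, against 22.5% and 18.3% of all probe sets. Creb1, the cAMP response factor, was 1119 and 960 in wild type and 738 and 702 in the day 25 dKO, with adjusted p = 0.508 in limma. Snap23, a docking protein of Aqp2 vesicles, was 428 and 486 against 337 and 362, with adjusted p = 0.555 in limma. Next by p were Rab5a, at 2638 and 2486 against 2134 and 2282, and Lgals3, at 212 and 381 against 962 and 392. Their adjusted p in limma was 0.659 and 0.665.

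The vasopressin receptors on that list were dim. Avpr2, the vasopressin receptor that drives Aqp2 in the kidney, was singled out after its values were seen. It had an intensity of 51 and 49 in wild type, 57 and 54 in the day 25 dKO, and 65 and 60 in dKO at 2 months, below the reference on every array. Oxtr, the oxytocin receptor, was likewise chosen after its values were seen. It was 188 and 327, 44 and 199, and 700 and 496 in the same order, with both 2-month arrays highest and the day 25 groups overlapping. Oxtr was above the reference on 5 arrays.

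Salt transport sets the gradient that water follows, and 22 of 26 listed ion transport genes were measured. At an unadjusted p under 0.05 in limma, 2 were higher and 0 lower in the dKO at day 25, and 3 were higher and 1 lower between the dKO ages, with 0 passing after adjustment in either. The shares of all probe sets were 3.36% higher and 4.79% lower at day 25, and 3.36% and 2.22% between the dKO ages. The median log2 differences were 0.17 and 0.12, where all genes had 0.03 and 0.02. With the 2-month dKO against wild type the median was 0.30, beside 0.04 for all genes. Without overlap 11 were higher and 3 lower there, against 22.5% and 18.3% of all probe sets. Slc9a3, a sodium and proton exchanger, was 577 and 641 in wild type, 2702 and 1642 in the day 25 dKO, and 764 and 2090 at 2 months. Both dKO arrays at day 25 lay above both wild-type arrays, a 3.46-fold difference with adjusted p = 0.555 in limma. Slc26a6, an anion exchanger, was 283 and 243 in wild type and 416 and 523 in the day 25 dKO, a 1.78-fold difference with adjusted p = 0.508 in limma.

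Proteoglycans and hyaluronan hold water in the antrum, and 17 of 18 listed genes of this matrix were measured. At day 25, 2 were higher and 2 lower in the dKO at an unadjusted p under 0.05 in limma, and between the dKO ages 2 were higher and 1 lower. Of all probe sets 3.36% were higher and 4.79% lower at day 25, and 3.36% and 2.22% between the dKO ages. After adjustment 0 passed in either, and the median log2 differences were 0.08 and 0.17, beside 0.03 and 0.02 for all genes. Set against wild type, the 2-month dKO had a median of 0.21, where all genes had 0.04. Here 5 were higher and 4 lower without overlap, against 22.5% and 18.3% of all probe sets. Has2, a hyaluronan synthase, was 24 and 27 in wild type, 19 and 18 in the day 25 dKO, and 23 and 20 at 2 months. It was below the reference on every array. Has3, another hyaluronan synthase, was 95 and 66 in wild type, 155 and 249 in the day 25 dKO, and 57 and 123 at 2 months. Itih2, a chain of the protein that cross-links hyaluronan, was 351 and 363, 162 and 263, and 135 and 141. Cd44, the hyaluronan receptor, was 85 and 74, 102 and 116, and 200 and 221 on its brightest probe set, and at day 25 the sign was opposite on 1 of the 3 others.

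Tight junctions limit the water that passes between cells. Of 17 measured genes of 18 listed, limma gave 1 higher and 0 lower an unadjusted p under 0.05 at day 25, and 0 higher and 1 lower between the dKO ages, with 0 passing after adjustment. All probe sets gave 3.36% higher and 4.79% lower at day 25, and 3.36% and 2.22% between the dKO ages. The median log2 differences were 0.07 and 0.01, with 0.03 and 0.02 over all genes. It was larger for the 2-month dKO against wild type, at 0.57 where all genes had 0.04. Of the 17 genes 8 were higher and 2 lower there without overlap, against 22.5% and 18.3% of all probe sets. Age and genotype cannot be told apart in that comparison. Cgn, the junction protein cingulin, was 369 and 433 in wild type, 529 and 771 in the day 25 dKO, and 817 and 690 at 2 months, with adjusted p = 0.572 in limma at day 25.

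Glycerol is the other cargo of Aqp3, Aqp7 and Aqp9, and 10 of 12 listed genes of its handling were measured. At an unadjusted p under 0.05 in limma, 1 was higher and 0 lower at day 25, and between the dKO ages 3 were higher and 0 lower. Over all probe sets 3.36% were higher and 4.79% lower at day 25, against 3.36% and 2.22% between the dKO ages. After adjustment 0 passed, and the median log2 differences were -0.01 and 0.30, against 0.03 and 0.02 over all genes. Compared with wild type, the 2-month dKO had a median of 0.40, against 0.04 over all genes. Without overlap 5 were then higher and 0 lower, where all probe sets gave 22.5% and 18.3%. Mgll, a lipase that releases glycerol from monoglycerides, was 51 and 72 in wild type, 98 and 101 in the day 25 dKO, and 262 and 213 at 2 months. On 1 of its 3 other probe sets the day 25 sign was opposite. Of the glycerol channels themselves, Aqp3 and Aqp7 were below the reference level on every array, and Aqp9 was above it on 5.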

How the data were processed

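Total RNA of ovarian granulosa cells was hybridised to 1 Affymetrix array per sample. The authors deposited 1 intensity for each probe set, not in log2 and rounded to whole numbers; affy and RMA were used, per the submitters' processing notes, with versions and genome build not given in the sources used here. RMA makes the arrays' distributions alike, so a shift shared by most genes is hidden. The table holds 45101 probe sets, from which 64 AFFX controls were removed.

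Values were transformed as log2(value + 1), which understates folds of dim genes. All 6 arrays were fitted with limma 3.58.1 in R 4.3.3, with a mean per group, 3 residual degrees of freedom, two-sided contrasts, and Benjamini-Hochberg adjustment over 45037 probe sets at a threshold of 0.05. The fit was tested on simulated data. The number of arrays limits the precision, and an exact permutation test of 2 against 2 cannot give a p below 0.333. A gene is given by its probe set of highest mean; 34945 probe sets carry 1 symbol. RefSeq sequences and gene order are from GRCm38.p6.

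Members, gene lists and tests were chosen with earlier results of these data known. Genes named by rule are all members, Foxo1 and Foxo3, and up to 4 of smallest day 25 p per pathway list (not all printed). The rule also took 3 neighbours on each side and the 5 of highest correlation with Aqp2 or Aqp5. Avpr2, Oxtr and single genes of the marker lists were named outside this rule. The alternatives tried were a pseudocount of 16, array centring, quantile normalization again, a filter on dim probe sets, a trended robust prior, fits of 4 arrays, other probe sets of a gene, a replicate block and leaving out each array.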

Additional observations from a re-analysis of the deposited data

How the results depend on the processing

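In limma the adjusted p was under 0.05 for 0 probe sets in each of the 3 comparisons, and for 0 of the 22 aquaporin probe sets at day 25, under every alternative run, including each array left out (0 to 0). The unadjusted p was under 0.05 for 3668 probe sets at day 25, and for 2337 to 6110 with 1 array left out, the most without either 2-month array. Between the dKO ages it was so for 2514, and for 1608 to 10127, the most without dKO 2-month replicate 2. For the 2-month dKO against wild type it was so for 5900, and for 2960 to 11312, the most without that same array. With a replicate block the counts called were 0 as well. Same-numbered arrays correlated at -0.16, -0.21 and 0.06 in their deviations from the group means. With 2 arrays a group each value compares a single difference per group. Whether the numbers pair the arrays therefore cannot be told from it. A crossed replicate block, added after seeing this, also gave 0 calls at day 25. Small day 25 differences changed sign. Left-out arrays gave ranges of -0.38 to 0.20 for Aqp2, -0.20 to 0.16 for Aqp4, -0.18 to 0.39 for Aqp5, -0.10 to 0.10 for Aqp6, -0.14 to 0.066 for Aqp7 and -0.073 to 0.20 for Aqp9. Aqp6 was -0.0071 with centred arrays and -0.00097 with repeated quantile normalization, Aqp9 was -0.050 as the mean of its probe sets, and Aqp11 was 0.0034 as that mean and 0.056 without its cross-hybridising probe set. Only 5 of the 22 probe sets pass the filter on dim probe sets, and for the other 17 dim signal limits what can be seen. The cause of these turns was not tested.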
